A study of Homo sapiens with 14 samples.

Results

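The PAQR family (progestin and adipoQ receptors) is a group of membrane proteins that includes both adiponectin receptors, the membrane progestin receptors, the Golgi proteins PAQR3 and PAQR4, and MMD. Its members were selected by family name, with their IP and input values already known: PAQR3, PAQR4, PAQR5, PAQR6, PAQR7, PAQR8, PAQR9, ADIPOR1, ADIPOR2 and MMD. All 10 had a row among the 19440 gene symbols of the count tables, and 9 passed the filter on low counts, which kept 9458 genes. The filter treats inputs and IPs alike, so IPs alone can carry a gene past it. PAQR9 and MMD needed their IPs to pass, so a high IP was partly a condition of their being tested. PAQR6 did not pass: it had 1 count in 1 library and 0 in the other 13.

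Selective ribosome profiling was done in Flp-In T-REx 293 cells, a line derived from HEK293 embryonic kidney cells that carries transgenes under doxycycline control. Ribosome-protected RNA fragments (footprints) were sequenced from solubilized microsomes (input) and from the material that Flag beads took out of them (IP), so a message rises in the IP when its translating ribosomes are held with the tagged protein. The baits were 3Flag-EMC6, expressed in cells whose own EMC6 was knocked out, and 3Flag-EMC7 and 3Flag-EMC10, for which the genotype label gives only the inducible transgene. All cells, inputs included, received 0.5 to 1 ng/mL doxycycline for 72 h and were harvested in cycloheximide. There were 2 inputs and 2 IPs for EMC6, 2 and 2 for EMC7, and 3 and 3 for EMC10, 14 libraries in all, and no IP from cells without a tagged bait was analysed here, so binding of ribosomes to the beads alone was not measured.

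EMC is a complex of the endoplasmic reticulum (ER) membrane that inserts membrane-spanning segments of many proteins, among them segments whose amino-terminal end faces the ER lumen. PAQR proteins have 7 membrane segments like G protein-coupled receptors, but most are described with the amino terminus in the cytosol, the reverse of the receptor orientation. They belong to a wider group of related membrane enzymes, with the alkaline ceramidases among them, and the adiponectin receptors have been linked to ceramide breakdown, AMPK and PPARA.

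Counts on genes ran from 515302 to 3395114 per library, lowest in the IPs of the EMC6 line (515302 and 960279). Counts that name no gene were 9.28% to 12.5% of the total with EMC6 as bait and 2.76% to 5.15% with the other baits. The bait message was higher in the IP of its own line, by 7.54 ± 0.25 (log2 ± SE) for EMC6, 5.71 ± 0.28 for EMC7 and 7.31 ± 0.18 for EMC10. VIM had 2486 to 4312 counts and KRT8 249 to 836 in the 7 inputs. Of 8 markers of the line, 7 had counts in every input, and NEFM had 1 count in 1 input. Of 10 markers of blood, liver, endothelium and differentiated kidney, 8 were at 0 in all inputs, CD3E reached 1 count and NPHS1 2. Levels below are CPM, counts scaled to a common library total by the TMM method, with SD between libraries. CPM are not divided by gene length, so they are compared between libraries and not between genes.

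For each of the 9 measured members, the IP/input value (the log2 change between IP and input, from the edgeR fit) was above 0 with each of the 3 baits, 27 of 27 values, and stayed above 0 under each other scaling tried. It passed the quasi-likelihood test of edgeR (adjusted p under 0.05, Benjamini-Hochberg) for 8 of 9 members with EMC6, where 17.6% of all tested genes were called higher in the IP. With EMC7 it passed for 8 of 9, against 20.4% of all genes, with EMC10 for 9 of 9, against 19.9%, and over the mean of the 3 lines for 9 of 9, against 23.7%. The members were chosen with this contrast known, so these counts describe them and are not a test of the family, and no p is given for them. PAQR9 had the highest value (mean of the lines 3.49 ± 0.20) and ADIPOR1 the lowest (1.35 ± 0.11). With library size alone as the scaling, 5 of 9 members were called with EMC7, beside 1001 of all 9458 genes (1930 with TMM). With EMC10 it was 4 of 9, beside 760 genes (1885 with TMM). ADIPOR1, ADIPOR2 and PAQR8 lost the call with both baits, and PAQR4 and MMD with EMC10. The members' median stood 1.94 above that of all genes with EMC7 and 1.85 above it with EMC10, under TMM and under library size alone. For the mean of the lines, library size alone turned the split of the whole table from 2243 higher and 2547 lower to 1135 and 7282.

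**Figure D1:**
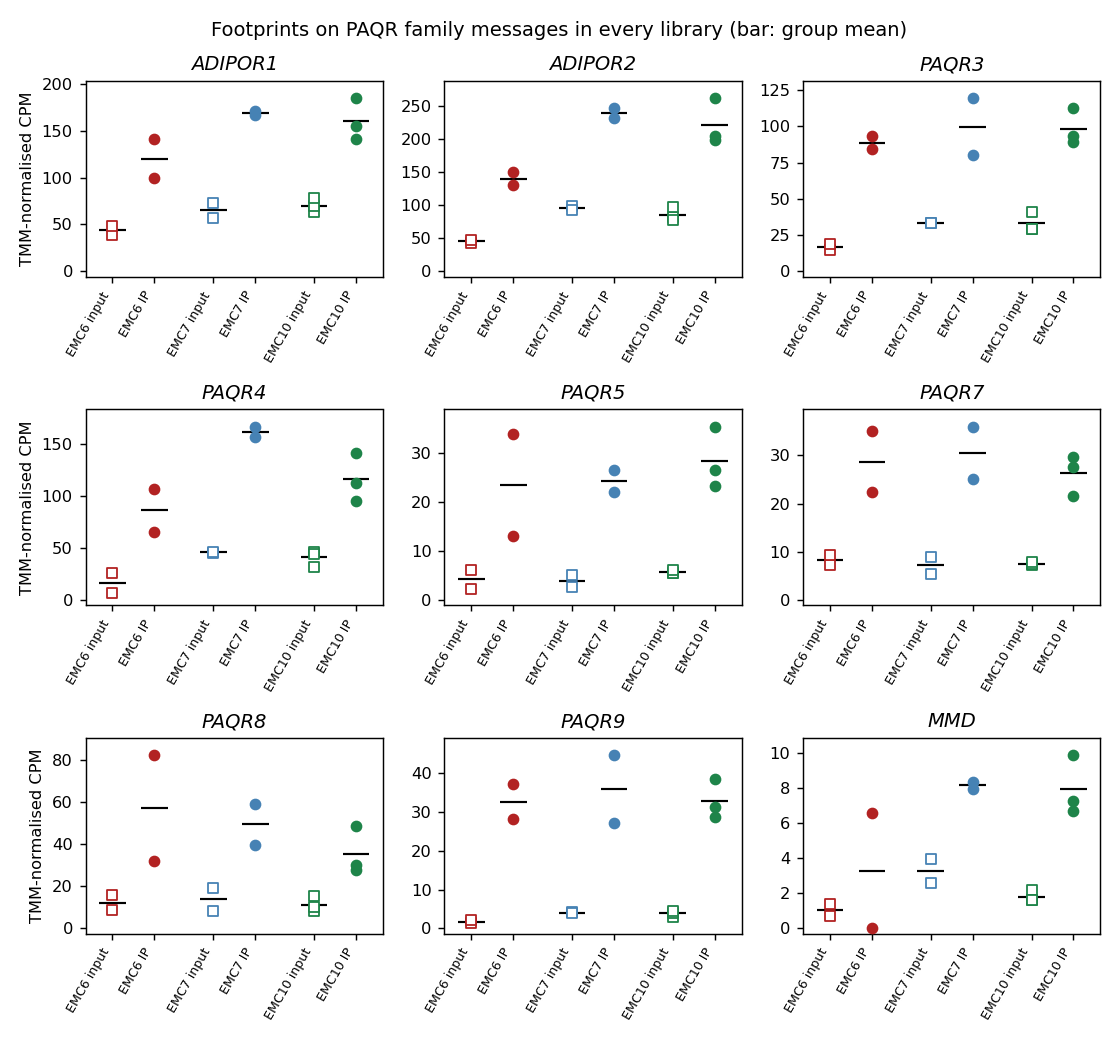
TMM-normalised CPM (y axis) of the 9 measured family members in each of the 14 libraries, by bait and fraction (x axis); open squares are inputs, filled circles are IPs and the bar is the group mean. Every IP stands above every input of its line, except for MMD with EMC6, where 1 IP is at 0. How many of all tested genes show such a gap was not counted. Each panel has its own scale.

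ADIPOR1 and ADIPOR2 are the receptors of adiponectin, a hormone of fat tissue. ADIPOR1 lies on chromosome 1 (202940825 to 202958572) and ADIPOR2 on chromosome 12 (1691070 to 1788674) of GRCh38. For ADIPOR2, the member with the most counts, 3489 were found over all libraries. In the EMC6 line ADIPOR2 stood at 43.4 and 47.6 CPM in the inputs and 131 and 150.1 CPM in the IPs. In the EMC7 line ADIPOR2 stood at 99.6 and 92.7 CPM in the inputs and 247 and 232 CPM in the IPs. In the EMC10 line ADIPOR2 stood at 82.8, 78.3 and 97.0 CPM in the inputs and 205, 199 and 262 CPM in the IPs. The IPs lay above all inputs of their line, and the lowest inputs of the series were the 2 of the EMC6 line. The IP/input value of ADIPOR2 was 1.64 ± 0.21 with EMC6, 1.32 ± 0.18 with EMC7 and 1.37 ± 0.15 with EMC10, and 1.44 ± 0.10 over the mean of the lines, a 2.72-fold difference.

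ADIPOR1 had 2681 counts in all. In the EMC6 line ADIPOR1 stood at 39.1 and 48.2 CPM in the inputs and 99.1 and 141 CPM in the IPs. In the EMC7 line ADIPOR1 stood at 72.6 and 57.3 CPM in the inputs and 171 and 167 CPM in the IPs. In the EMC10 line ADIPOR1 stood at 63.1, 69.2 and 78.2 CPM in the inputs and 141, 155 and 184 CPM in the IPs. Its IPs and inputs did not overlap in any line. Its IP/input value was 1.49 ± 0.22 with EMC6, 1.38 ± 0.19 with EMC7, 1.19 ± 0.16 with EMC10 and 1.35 ± 0.11 over the mean, or 2.55-fold. Within the 7 pairs of an input and the IP made from it, ADIPOR1 minus ADIPOR2 was -0.10 ± 0.15 (SD, n = 7 pairs, -0.25 to 0.22), above 0 in 1 pair. The receptors thus stayed within 0.25 log2 of each other in every pair. With library size alone, ADIPOR1 had 0.36 with EMC7 and 0.08 with EMC10, and ADIPOR2 0.30 and 0.25, none of them called.

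PAQR3 is a Golgi protein known to bind SCAP, the escort of the SREBP transcription factors. It lies on chromosome 4 (78887076 to 78939438), where its gene overlaps BMP2K. PAQR3 in the EMC6 line stood at 14.8 and 19.2 CPM in the inputs and 84.1 and 93.1 CPM in the IPs. PAQR3 in the EMC7 line stood at 33.0 and 33.5 CPM in the inputs and 119 and 80.4 CPM in the IPs. PAQR3 in the EMC10 line stood at 29.0, 29.5 and 40.7 CPM in the inputs and 89.1, 93.2 and 113 CPM in the IPs. The EMC6 inputs were the lowest of all inputs, while the IPs of the 3 lines overlapped each other. The IP/input value of PAQR3 was 2.39 ± 0.26 with EMC6, 1.61 ± 0.21 with EMC7 and 1.58 ± 0.18 with EMC10, and 1.86 ± 0.13 (3.63-fold) over the mean.

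PAQR4, also placed in the Golgi, has been linked to CDK4 stability and to ceramide. It lies on chromosome 16 (2969348 to 2973484), overlapping PKMYT1. PAQR4 in the EMC6 line stood at 6.87 and 25.7 CPM in the inputs and 65.4 and 106 CPM in the IPs. PAQR4 in the EMC7 line stood at 45.4 and 46.0 CPM in the inputs and 166 and 157 CPM in the IPs. PAQR4 in the EMC10 line stood at 31.99, 46.2 and 44.5 CPM in the inputs and 95.1, 141 and 112 CPM in the IPs. The 2 EMC6 inputs were far apart, at 19 and 75 counts. The IP/input value of PAQR4 was 2.43 ± 0.39, 1.82 ± 0.30 and 1.51 ± 0.26 with EMC6, EMC7 and EMC10, and 1.92 ± 0.19 over the mean. PAQR3 minus PAQR4 within pairs was -0.11 ± 0.36 (SD, n = 7, -0.73 to 0.23), so the Golgi members did not keep a common order. PAQR4 with EMC10 had 0.40 with library size alone, not called. The strand setting of the counting is not given in the sources used here, and reads of PAQR3 and PAQR4 cannot be told apart from those of an overlapping gene where the genes share sequence positions.

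The membrane progestin receptors are PAQR7, PAQR8, PAQR5, PAQR6 and PAQR9, also called mPR alpha, beta, gamma, delta and epsilon. PAQR7 and PAQR8 are the best known, from rapid progestin responses of eggs and sperm. PAQR7 (chromosome 1, 25861484 to 25875708) had 392 counts in all. In the EMC6 line PAQR7 stood at 7.23 and 9.24 CPM in the inputs and 22.4 and 35.1 CPM in the IPs. In the EMC7 line PAQR7 stood at 8.84 and 5.47 CPM in the inputs and 36.0 and 25.1 CPM in the IPs. In the EMC10 line PAQR7 stood at 7.19, 7.47 and 7.77 CPM in the inputs and 27.7, 21.5 and 29.6 CPM in the IPs. Its inputs were low and alike across the lines, and every IP stood above them. Its IP/input value was 1.86 ± 0.35 with EMC6, 2.08 ± 0.30 with EMC7 and 1.799 ± 0.26 with EMC10, 3.76-fold over the mean.

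PAQR8 (chromosome 6, 52362151 to 52407777) had 640 counts in all. PAQR8 in the EMC6 line stood at 8.68 and 15.7 CPM in the inputs and 31.8 and 82.2 CPM in the IPs. PAQR8 in the EMC7 line stood at 19.3 and 8.36 CPM in the inputs and 59.0 and 39.7 CPM in the IPs. PAQR8 in the EMC10 line stood at 8.11, 15.2 and 9.91 CPM in the inputs and 30.1, 48.4 and 27.7 CPM in the IPs. The 2 IPs of the EMC6 line were far apart, yet both were above the inputs. The IP/input value of PAQR8 was 2.31 ± 0.47, 1.81 ± 0.42 and 1.68 ± 0.39 with EMC6, EMC7 and EMC10. PAQR7 minus PAQR8 within pairs was 0.0030 ± 0.33 (SD, n = 7, -0.46 to 0.44). PAQR8 had 0.79 with EMC7 and 0.57 with EMC10 under library size alone, not called, and without EMC7 IP replicate 1 its value with EMC7 was 1.45, not called.

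PAQR5 (chromosome 15, 69298912 to 69407780) had 304 counts in all and overlaps the antisense gene KIF23-AS1. In the EMC6 line PAQR5 stood at 2.17 and 6.16 CPM in the inputs and 13.1 and 34.0 CPM in the IPs. In the EMC7 line PAQR5 stood at 2.56 and 5.15 CPM in the inputs and 26.6 and 21.9 CPM in the IPs. In the EMC10 line PAQR5 stood at 5.56, 5.50 and 6.16 CPM in the inputs and 26.5, 23.3 and 35.3 CPM in the IPs. No IP fell as low as any input of its line, and EMC6 IP replicate 1 was the lowest IP. Its IP/input value was 2.59 ± 0.45, 2.72 ± 0.40 and 2.30 ± 0.30 with EMC6, EMC7 and EMC10, and 2.54 ± 0.23 over the mean, or 5.81-fold. PAQR5 minus PAQR7 within pairs was 0.58 ± 0.45 (SD, n = 7, -0.10 to 1.31), above 0 in 6 pairs. Without EMC6 IP replicate 2, the deeper of the EMC6 IPs, PAQR5, PAQR7 and PAQR8 had 1.61, 1.43 and 1.36 with EMC6 and lost their calls, which left 5 of 9 members called in that line.

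PAQR9 (chromosome 3, 142949164 to 142964008) had few footprints in the inputs and many more in the IPs. PAQR9 in the EMC6 line stood at 1.45 and 2.05 CPM in the inputs and 28.04 and 37.2 CPM in the IPs. PAQR9 in the EMC7 line stood at 4.19 and 3.86 CPM in the inputs and 44.6 and 27.2 CPM in the IPs. PAQR9 in the EMC10 line stood at 3.01, 3.96 and 4.55 CPM in the inputs and 31.3, 38.5 and 28.7 CPM in the IPs. In counts, the EMC6 inputs held 4 and 6 and the EMC6 IPs 15 and 34, and the EMC10 inputs held 13, 18 and 17 against 26, 43 and 30 in the IPs. The lowest IP of PAQR9 was thus well above its highest input over all lines. The IP/input value of PAQR9 was 4.21 ± 0.44 with EMC6, 3.17 ± 0.32 with EMC7 and 3.09 ± 0.28 with EMC10, and 3.49 ± 0.20 over the mean, or 11.3-fold. It stood at percentile 99.3 of all tested genes, PAQR5 at 96.6, and the other members between 88.8 (ADIPOR1) and 93.6 (PAQR8). PAQR9 passed the low-count filter only with its IPs counted, so with low IPs it would not have been among the tested genes.

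Within pairs, where the scaling of libraries cancels, PAQR9 was above each of the other 8 members in 7 of 7 pairs. The margin was smallest over PAQR5, at 0.91 ± 0.64 (SD, 0.051 to 1.64), and reached 1.57 ± 0.21 over PAQR3 and 2.06 ± 0.57 over ADIPOR1. Within the progestin receptors it was 1.49 ± 0.70 over PAQR7 and 1.50 ± 0.54 over PAQR8. These are descriptions with no test, since PAQR9 was set apart after its values were seen. The pairwise values hold a pseudocount of 0.5 counts, and with 2 counts the mean margins ran from 0.82 to 1.93.

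**Figure D2:**
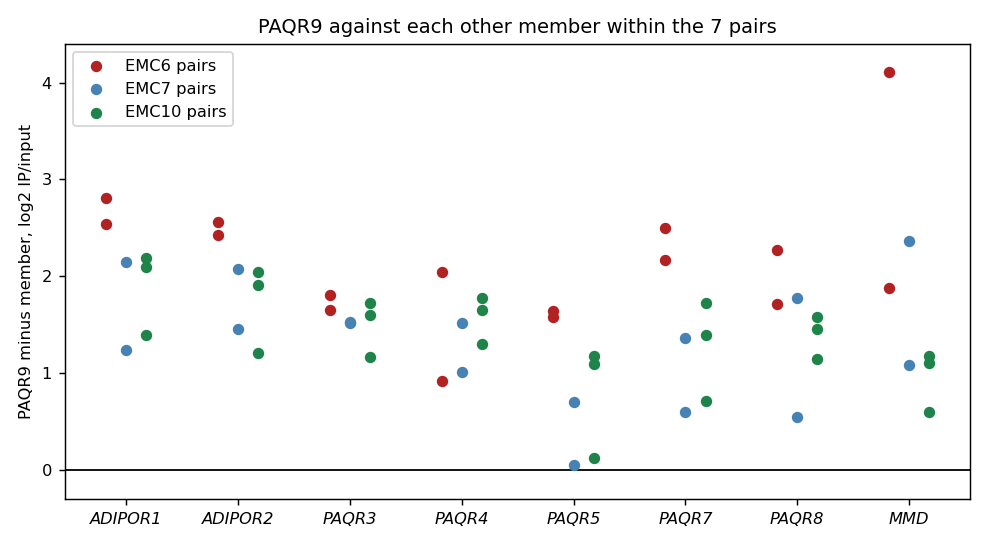
PAQR9 minus each other member in log2 IP/input (y axis) within the 7 pairs of an input and its IP (points, coloured by bait), by the other member (x axis). All points lie above 0; the lowest, 0.051, is against PAQR5 and the highest, 4.11, against MMD, which had 0 counts in 1 EMC6 IP.

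MMD, known from monocyte to macrophage differentiation, and PAQR6 were at the edge of detection. MMD (chromosome 17, 55392622 to 55421835) had 103 counts over 13 libraries with any. In the EMC6 line MMD stood at 0.723 and 1.37 CPM in the inputs and 0 and 6.57 CPM in the IPs. In the EMC7 line MMD stood at 3.96 and 2.57 CPM in the inputs and 7.91 and 8.36 CPM in the IPs. MMD in the EMC10 line stood at 1.62, 2.198 and 1.61 CPM in the inputs and 7.23, 9.85 and 6.69 CPM in the IPs. In counts, the EMC6 line held 2 and 4 in the inputs and 0 and 6 in the IPs, so its IP/input value there, 1.90 ± 0.93, has the widest error of the family and was not called. The IPs did not overlap the inputs with EMC7 (1.26 ± 0.53, not called) or EMC10 (2.102 ± 0.49, called). MMD's value with EMC7 was 1.33 and called when that line's libraries were fitted alone, and with EMC6 it was 2.69 and called without EMC6 IP replicate 1. Without EMC6 IP replicate 2, which leaves that group at 0 counts, the value of MMD over the mean of the lines, 1.75 ± 0.41, became -0.35 and was not called. PAQR6 (chromosome 1, 156243320 to 156248056) had its single count in EMC7 IP replicate 2. A count of 0 allows up to 3 counts, or 0.884 to 5.82 CPM before TMM scaling depending on the library. In the 7 inputs, where PAQR6 was at 0, PAQR9 held 4 to 18 counts, above that limit in each. These limits cover counting error only.

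**Figure D3:**
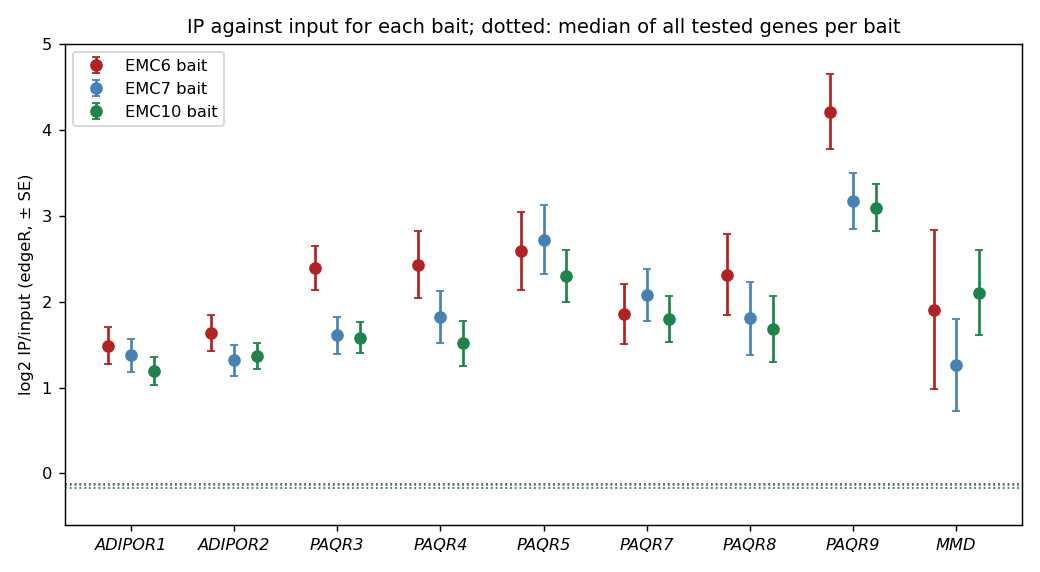
log2 IP/input from edgeR ± SE (y axis) of each measured member (x axis) with EMC6, EMC7 and EMC10 as bait; dotted lines are the medians of all 9458 tested genes for each bait. PAQR9 is highest with every bait, at 4.21, 3.17 and 3.09, and the error bars are widest for MMD.

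Whether the baits differ was tested by the interaction terms of the same fit, on which the members were not chosen, although the same libraries enter them. The EMC6 differences share the EMC6 libraries. No member of 9 passed edgeR's quasi-likelihood test after Benjamini-Hochberg adjustment in any of the 3 differences. All genes called in either direction were 0.518% for EMC6 minus EMC7, 0.074% for EMC6 minus EMC10 and 0.159% for EMC7 minus EMC10. At an unadjusted p under 0.05 there were 1, 1 and 0 members, the 1 being PAQR3 both times, and DESeq2 called 0, 0 and 0 after adjustment (1, 2 and 0 at an unadjusted p under 0.05). Neither of these fits pairs an IP with its input. An edgeR fit with a replicate block, which does, called more of the 9458 genes. It called 267 higher and 330 lower for EMC6 minus EMC7, 178 and 33 for EMC6 minus EMC10, and 348 and 66 for EMC7 minus EMC10. Of the members it called only PAQR4, for EMC6 minus EMC10.

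PAQR9 had the largest bait differences in size: EMC6 minus EMC7 was 1.04 ± 0.60 (edgeR adjusted p = 0.665) and EMC6 minus EMC10 1.12 ± 0.56 (adjusted p = 0.791). For PAQR3 they were 0.78 ± 0.33 (adjusted p = 0.407) and 0.80 ± 0.31 (adjusted p = 0.691). ADIPOR1 and ADIPOR2 had 0.11 ± 0.29 and 0.32 ± 0.27 for EMC6 minus EMC7, neither past the threshold (adjusted p = 0.967 and 0.854). PAQR7 had -0.22 ± 0.46 and 0.056 ± 0.44 for the EMC6 differences. For EMC7 minus EMC10 each member had an adjusted p of 0.999, and the largest in size was MMD, at -0.84 ± 0.70.

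The value of PAQR4 moved with the EMC6 input left out. EMC6 minus EMC10 was 0.92 ± 0.46 (edgeR adjusted p = 0.791). With the replicate block, which compares each IP with its own input, it was 0.87 (edgeR adjusted p = 0.0293). Without EMC6 input replicate 2 it was 2.29, with 2.00 for EMC6 minus EMC7. The medians of all genes moved up too, to 0.22 and 0.18, from 0.056 and 0.015 with all libraries. EMC6 input replicate 1 was then the only EMC6 input, and held 19 counts of PAQR4. Without EMC6 input replicate 1 instead, the value for EMC6 minus EMC10 was 0.29 and that for EMC6 minus EMC7 was -0.019. For PAQR3, EMC6 minus EMC10 was 1.21 with library size alone (edgeR adjusted p = 0.0161). That scaling called 493 of all genes higher and 1 lower, against 6 and 1 with TMM. It also moved the median of all genes from 0.056 to 0.46.

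The IP/input values of the family were set beside those of other multi-segment receptors, a description since the members and lists were chosen with results known. Over the mean of the 3 lines, the 9 members had a median of 1.91 (log2), which is 2.098 above the median of all tested genes (-0.19). Of 252 class A G protein-coupled receptors with a row in the counts, whose amino terminus faces the ER lumen, 34 passed the filter. These 34 had a median of 1.87 (range 0.94 to 3.81), and 34 of 34 were called higher. LPAR1, a lysophosphatidic acid receptor, was the nearest to that median at 1.91 ± 0.16. Of 41 frizzled, adhesion and class B receptors, which carry large luminal domains, 26 passed the filter. They had a median of 1.40 (range 0.68 to 2.86), 26 of 26 called higher. With library size alone these counts were 27 of 34 and 15 of 26, and 9 of 9 members. Since IPs alone can carry a gene past the filter, a high IP may have been a condition of testing some receptors. How many needed their IPs to pass was not counted, so the medians and called shares of both lists may be raised.

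Within the 7 pairs, the members' median was 0.037 ± 0.19 (SD) above that of the class A receptors (-0.36 to 0.20, below 0 in 1 pair) and 0.42 ± 0.26 above that of the frizzled, adhesion and class B receptors (0.13 to 0.90, above 0 in 7 of 7). So the mean difference from the class A median was smaller than its own SD over the pairs, while the members themselves spread widely. ADIPOR1 lay below 30 of the 34 class A receptors and ADIPOR2 below 28. PAQR9 lay below 1 and PAQR5 below 4, and PAQR3, PAQR4, PAQR7, PAQR8 and MMD lay below 16 to 18 of the 34. The difference of medians from class A over the mean of the lines was 0.045, and 0.036 to 0.059 under the other scalings and the replicate block. With 1 library left out it ran from -0.078 to 0.14, below 0 without EMC6 input replicate 2 (-0.078), EMC7 input replicate 2 (-0.034) or EMC10 IP replicate 3 (-0.033), and highest without EMC6 IP replicate 2 (0.143) or EMC10 IP replicate 2 (0.141).

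**Figure D4:**
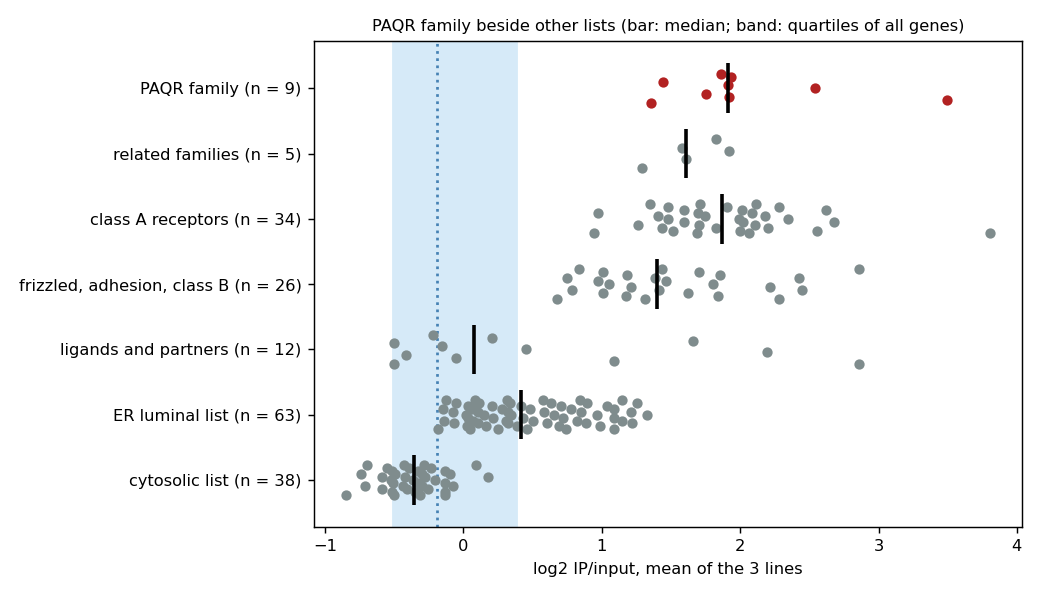
log2 IP/input over the mean of the 3 lines (x axis) of each tested gene of the PAQR family and of the comparison lists (rows, points); bars are list medians, the band is the interquartile range of all tested genes and the dotted line is their median, -0.19. The family and the class A receptors have like medians, 1.91 and 1.87, and the cytosolic list lies below the median of all genes.

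Genes of soluble products stood elsewhere. Of 63 tested messages of the ER lumen and secretory enzymes, 38 were higher and 0 lower over the mean, with a median of 0.41, but with library size alone 6 were higher and 43 lower (median -0.54). Of 38 tested cytosolic genes, 0 were higher and 27 lower, with a median of -0.36 (-1.31 with library size alone, 38 lower). Each of the 9 members lay above the medians of both lists, ADIPOR1 by the least.

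The list of related membrane proteins gave 5 tested genes of 8 in the tables. Of these, 5 of 5 were called higher over the mean, with 3 called with EMC6, 4 with EMC7 and 5 with EMC10. ACER2 and ACER3, alkaline ceramidases, had 1.29 ± 0.34 and 1.82 ± 0.25. PGAP3 and PGAP6, which act on GPI anchors, had 1.61 ± 0.17 and 1.92 ± 0.18, and TMEM8B had 1.58 ± 0.23. Their median of 1.61 lay between the values of ADIPOR2 and MMD. ACER1 and MYMK had 0 counts, and MMD2, a relative of MMD that was placed in this list, had 1.

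Other genes of the pathways in which the family acts were less uniform. Of 17 listed genes 12 were tested, and 5 were higher and 1 lower over the mean, with a median of 0.079; with library size alone, 3 were higher and 8 lower, and with DESeq2 6 and 0. SCAP, the multi-segment sterol sensor that PAQR3 binds, had 2.86 ± 0.10, above every member except PAQR9, and SPTLC1, a subunit of the enzyme that starts sphingolipid synthesis, had 2.196 ± 0.10. TLCD1, a membrane protein linked to the ADIPOR2 response to rigid membranes, had 1.66 ± 0.12, the ER chaperone CALR (calreticulin) had 1.09 ± 0.10, and PGRMC1, a single-segment progesterone-binding protein not of the PAQR fold, had 0.45 ± 0.096 (-0.50 with library size alone). CALR with library size alone had 0.15, not called. PRKAA1, a catalytic subunit of AMPK, was the lower one, at -0.50 ± 0.16 (edgeR adjusted p = 0.00889; not called by DESeq2). APPL1, the adaptor of the adiponectin receptors, had -0.053 ± 0.18 and CDK4 -0.15 ± 0.13, neither past the test. ADIPOQ, which encodes adiponectin, and its relative C1QTNF9 had 0 counts, as did CDH13, an adiponectin-binding protein, and TLCD2, a relative of TLCD1. PPARA had 27 counts in all and did not pass the filter.

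Among 9440 genes with at least 50 counts over all libraries, those nearest to each member over the 7 log2 IP/input ratios were found by the root-mean-square (RMS) difference. For ADIPOR2 they were BCAP31, SLC17A5 and GJA1, with an RMS of 0.0839 to 0.0988, and for ADIPOR1 the nearest was MAN1B1 at 0.118. PAQR8 was nearest to CNNM4 (0.126), PAQR7 to GHDC (0.139) and PAQR3 to SLC1A1 (0.17). PAQR4 was nearest to LPAR1 (0.219) and S1PR2 (0.236), both class A receptors, and then to CREB3L4 (0.24), which is not one. PAQR9 had SLC35D3, UNC93B1 and SGPP1 at 0.249 to 0.25. No member was among the 3 nearest of another.

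The inputs themselves differed between the lines, a contrast that the choice of members did not use. Of 9 members, 5 were lower in the EMC6 inputs than in the mean of the EMC7 and EMC10 inputs: PAQR3, PAQR4, PAQR9, ADIPOR1 and ADIPOR2. Of all genes, 21.8% were called lower and 15.3% higher, so the shift reaches far beyond the family; 0 members were higher. The EMC6 inputs are a line of its own, with an EMC6 knockout background, lower depth and a larger share of counts outside genes, and these cannot be told apart. The EMC6 inputs are also the denominators of the EMC6 IP/input values above.

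ADIPOR2 stood at 43.4 and 47.6 CPM in the EMC6 inputs and at 78.3 to 99.6 CPM (median 92.7) in the other 5, 45.5 ± 2.94 (SD, n = 2) against 90.0 ± 9.19 (n = 5). The difference was -0.998 ± 0.17 (log2 ± SE, edgeR adjusted p = 9.10e-06). ADIPOR1 stood at 43.7 ± 6.50 against 68.1 ± 8.17 CPM, -0.63 ± 0.17 (adjusted p = 0.00411). PAQR3 stood at 17.0 ± 3.06 against 33.1 ± 4.70 CPM, -0.95 ± 0.21 (edgeR adjusted p = 0.000375). For each of these 3 the groups did not overlap, as was also so for PAQR4, PAQR9 and MMD. How many of all tested genes do not overlap between these groups was not counted.

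PAQR4 was lower by the most, at 16.3 ± 13.3 against 42.8 ± 6.08 CPM, -1.39 ± 0.31 (edgeR adjusted p = 0.00154), with EMC6 input replicates at 6.87 and 25.7 CPM. PAQR9 stood at 1.75 ± 0.429 against 3.91 ± 0.570 CPM, -1.14 ± 0.45 (adjusted p = 0.0445). PAQR7, at 8.24 ± 1.42 against 7.35 ± 1.22 CPM, and PAQR8, at 12.2 ± 4.99 against 12.2 ± 4.90 CPM, had differences of 0.16 ± 0.28 and -0.044 ± 0.40, neither past the test (adjusted p = 0.702 and 0.946). PAQR5 overlapped too (-0.12 ± 0.40, adjusted p = 0.838), and MMD did not overlap but did not pass either (-1.19 ± 0.62, adjusted p = 0.133). In bulk libraries of this kind, fewer messages and fewer ribosomes per message cannot be told apart. The inputs were solubilized microsomes, and the recovery of ER membrane in them was not measured, so these levels are not those of whole cells.

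These calls moved with the scaling. Beside the members, 59 of the 63 ER luminal messages were lower in the EMC6 inputs (median -0.98), as were 13 of 34 class A receptors (3 higher) and 15 of 26 frizzled, adhesion and class B receptors, while the cytosolic list had a median of 0.01 (5 higher and 2 lower of 38). With library size alone, 3 members were lower and 0 higher, the calls of PAQR9 (adjusted p = 0.123) and ADIPOR1 (adjusted p = 0.0964) being lost. Among all genes, 2066 were lower and 1445 higher with TMM, 1452 and 3434 with library size alone, and 271 and 6839 with TMM factors from the ER luminal list alone, which sets that list near 0. With these last factors, 0 members were lower and 2 were higher, PAQR7 by 1.14 and PAQR8 by 0.94. Relative to the median of all genes, the members' median was -1.02 with TMM and with library size alone. PAQR9 also lost its call with DESeq2 (adjusted p = 0.0655), and DESeq2 called 4 members. Leaving out 1 input ended the call of PAQR9 for each input except EMC10 input replicate 1 (edgeR adjusted p = 0.0582 to 0.257, value -1.46 to -0.93), and that of ADIPOR1 without EMC6 input replicate 1 (-0.50, adjusted p = 0.0602). The calls of PAQR3, PAQR4 and ADIPOR2 passed with each input left out in turn.

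**Figure D5:**
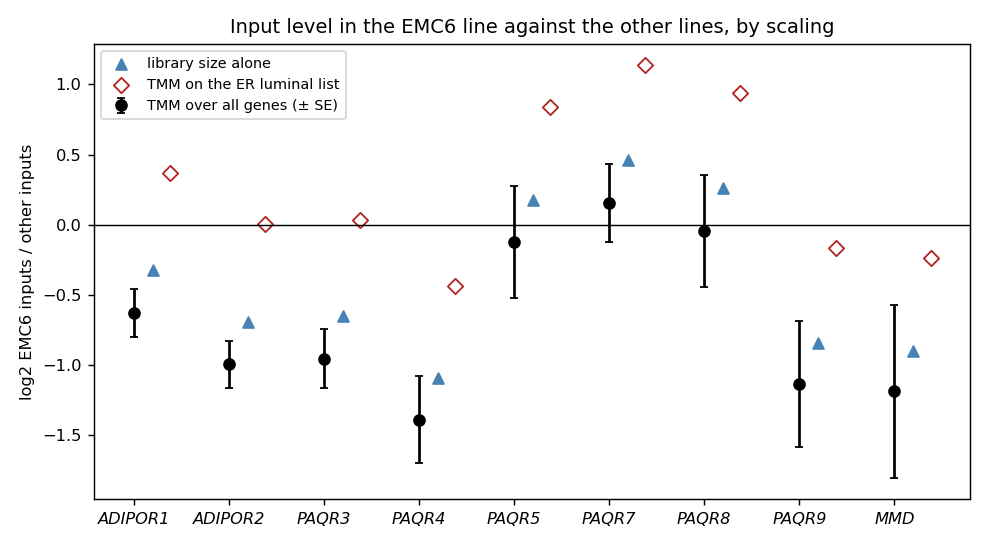
log2 ratio of the EMC6 inputs to the mean of the other inputs (y axis) for each measured member (x axis), with TMM over all genes ± SE (circles), library size alone (triangles) and TMM on the ER luminal list (open diamonds). With TMM the adiponectin receptors and PAQR3, PAQR4 and PAQR9 lie below 0 by 0.63 to 1.39, PAQR7 and PAQR8 lie near 0, and the ER luminal scaling moves all of them up by about 1.

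Between the EMC7 and EMC10 inputs no member passed edgeR's test (0 of 9 called, each with an adjusted p of 1; 0 at an unadjusted p under 0.05; 0 with DESeq2), beside 0.0211% of all genes called. The largest differences were those of MMD, 0.86 ± 0.49, and PAQR5, -0.63 ± 0.39 (EMC7 over EMC10, log2 ± SE).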

How the data were processed

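Footprints were deposited by the authors as whole-number counts per gene symbol, 1 table for each of 14 libraries, not normalized. The submitters' processing notes name cutadapt 4.1, Bowtie2 2.2.6, TopHat2 2.1.0 and hg38; the annotation, the strand setting and duplicate removal, each not given in the sources used here, could change the counts. Positions come from RefSeq (GRCh38.p14), which matched 18968 of 19440 symbols.

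The 5 rows naming no gene (2.76% to 12.5% of counts) were left out. One edgeR 4.0.16 fit (limma 3.58.1, R 4.3.3; TMM, filterByExpr with a minimum of 10 counts, robust quasi-likelihood test, Benjamini-Hochberg at 0.05 over 9458 genes) held a mean per line and fraction. It was tested on simulated data. DESeq2 1.42.0, other scalings, no filter, the replicate block and leaving out libraries were alternatives. Values within pairs used log2 of counts plus 0.5.

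An IP was made from the input of the same number, per the labels' protocols, so numbers pair samples; their deviations from group means correlated at 0.613 (EMC6), 0.203 (EMC7) and 0.221 to 0.254 (EMC10) over 4550 genes. Replicates differed by more than sampling noise (chi-square of 2.09 to 8.62 per degree of freedom). The highest were the EMC6 inputs (8.62) and EMC6 IPs (4.79), against 2.09 to 3.27 in the other groups. The fit shares its estimate of spread over all groups, so p-values that rest on the EMC6 libraries may be too small. Separate cultures are not stated for replicates, so the spread behind each p-value is that between libraries and may be technical only.

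All 10 members are named, with tested genes of the related and partner lists, the gene nearest each receptor list's median, and the baits. The genes nearest each member are those with the smallest RMS difference, up to 3 per member. One further gene, first placed in the partner list, was left out of it and is not reported here. Members and lists were chosen with earlier results of these data known.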

Additional observations from a re-analysis of the deposited data

How the results depend on the processing

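Members called with EMC6 numbered 8, beside 1666 of all 9458 genes. Without EMC6 IP replicate 2 fewer members and fewer of all genes were called, and without EMC6 IP replicate 1 more of both. Members called with EMC7 numbered 8 and with EMC10 9, and with library size alone 5 and 4, beside 1001 and 760 of all 9458 genes. Differences between baits called 0 members in the main fit. EMC6 minus EMC10 called 1 with library size alone (PAQR3), beside 493 of all genes higher and 1 lower, against 6 and 1 with TMM. The replicate block called 1 there (PAQR4), beside 178 of all genes higher and 33 lower. Without EMC6 input replicate 2, which leaves 1 EMC6 input, PAQR4 rose to 2.00 for EMC6 minus EMC7 and 2.29 for EMC6 minus EMC10. The block changed no other call of a member; it cannot be fitted for inputs, where each pair lies in 1 line. For the EMC6 inputs, 5 members were lower, against 3 with library size alone, 3 with library size without the bait messages, 0 with TMM on the ER luminal list and 3 to 5 with 1 library left out (3 without EMC6 input replicate 1). The ER luminal scaling turned the sign of PAQR3 (0.035), PAQR5 (0.84, not called), PAQR8 (0.94), ADIPOR1 (0.36) and ADIPOR2 (0.0023). MMD, IP against input, mean of the 3 lines, was 1.75, and -0.35 to 2.01 with 1 library left out; the lowest, without EMC6 IP replicate 2, leaves that group at 0 counts, so the fitted value depends on the prior count. A left-out library of a group of 2 leaves 1 sample, assumed to vary like the other groups. The all-gene median, averaged over lines, was -0.19 with TMM scaling, -1.13 with library size alone, -0.92 without the bait messages, -0.64 with the ER luminal list and -0.10 with DESeq2, and members' changes are read against it. Of the alternatives for single members, 1004 kept direction and call, 76 changed the sign of a value not called, 27 lost and 7 gained the call, and 5 reversed. The planned description of protein features was not run, since protein sequences were not used here. Depth limits MMD and PAQR6.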

Other observations

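In the EMC6 inputs against the other inputs, 6 of the 12 tested partners were lower, all of them ER or membrane proteins: CALR by -1.41 ± 0.17 (log2 ± SE), SPTLC1 by -1.03 ± 0.16, PGRMC1 by -0.99 ± 0.16, TLCD1 by -0.65 ± 0.19, PGRMC2 by -0.62 ± 0.16 and SCAP by -0.52 ± 0.16. The other 4 called partners were higher, all of them soluble signalling proteins: STK11, the kinase upstream of AMPK, by 1.16 ± 0.36, the adaptor APPL2 by 0.80 ± 0.24, PRKAA1 by 0.68 ± 0.18 and PRKAA2 by 0.58 ± 0.22. All 10 passed edgeR's quasi-likelihood test with Benjamini-Hochberg adjustment over all genes, with adjusted p-values up to 0.0396. Of all genes, 21.8% were called lower and 15.3% higher. The tested partners not called, APPL1 (0.28 ± 0.22) and CDK4 (0.11 ± 0.17), are soluble proteins too. The genes were grouped by product after their values were seen, and depth and the knockout background cannot be told apart. With library size alone 3 partners were lower and 6 higher, with TMM on the ER luminal list 0 and 8, and with DESeq2 6 and 1. The 8 included SCAP and PGRMC2, so the calls against 0 depended on the scaling, while the order of the products did not. With TMM on the ER luminal list the ER or membrane partners ran from -0.38 (CALR) to 0.47 (SCAP). The soluble ones ran from 1.11 (CDK4) to 2.15 (STK11). With library size alone the ranges were -1.10 to -0.22 and 0.42 to 1.47, between the same genes.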
